A study of Mus musculus with 8 samples.

Results

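The locus described here lies on mouse chromosome 6, between bases 3200761 and 3201680 of the mm10 build. Its members are the small RNA names, deposited as piRNA names, whose first listed position fell inside this window when each name was kept once, with chromosomes sorted as text. The choice used position only and no measured value. Of the 13450 names in the table for MC-LR and control, 337 were members, and of the 17375 names in the table for Hsp90aa1 shRNA and negative-control shRNA, 419 were. Both tables shared 311 members, with 26 in the MC-LR table alone and 108 in the shRNA table alone.

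Small RNA of sperm was sequenced from 8-month-old Balb/c mice in 4 groups of 2 libraries, lettered A and B. The groups were MC-LR exposure with its control, and shRNA against Hsp90aa1 with a negative-control shRNA. MC-LR is microcystin-LR, a toxin of cyanobacteria that inhibits serine/threonine protein phosphatases, and Hsp90aa1 encodes a cytosolic heat shock chaperone. The series' design text mentions 2 doses of MC-LR, whereas the labels used here give no dose, duration, route or way of shRNA delivery. MC-LR A and B may therefore have had different doses, and each mean, SD and SE over them may span both. The labels also leave unsaid whether libraries A and B stem from different animals. The p-values below therefore refer to the spread between libraries alone, and that spread may be technical. No messenger RNA was analysed here, so neither the knockdown of Hsp90aa1 nor the cell type of the samples was checked against a transcript. In bulk samples fewer cells of a type and less RNA per cell cannot be told apart.

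piRNAs are germline small RNAs that are loaded into PIWI proteins and guide the silencing of transposable elements, and in mammals many of them begin with U. Ribosomal RNA is transcribed from tandem repeats as a long 45S precursor, which is cut into the mature RNAs of both ribosomal subunits, the 18S RNA being that of the small subunit. Fragments of ribosomal RNA are also abundant among the small RNAs of sperm, and catalogues of piRNA names include sequences that match it.

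Neither GENCODE M21 nor RefSeq places a gene of GRCm38 (mm10) in the window. The nearest GENCODE genes are Gm42959, an unclassified transcript that ends 9.87 kb before the first listed base, and Gm2651, a processed pseudogene that begins 6.2 kb after the last. Rows of the tables filled chr6:3200770-3201671, and these 902 bases ran parallel to chr17:39846681-39847582. Each of the 1287 names of the MC-LR table and 1645 names of the shRNA table that were listed in both stretches had the same offset between them. The chromosome 17 stretch lies in a copy of the 45S repeat, within the 18S-related gene CT010467.1, and covers bases 329 to 1230 of its 1849 bases, read on the plus strand. Every member was on the plus strand.

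Members are by construction names of the window that were not listed on a chromosome sorted before it. The window held rows of a further 1301 names in the MC-LR table and 1661 in the shRNA table, which were first listed elsewhere. Of these, 1287 and 1645 were also listed at the parallel bases of chromosome 17. The members fell into 5 separate blocks in the MC-LR table and 6 in the shRNA table. Blocks 1 to 4 lay at chr6:3200963-3200996, chr6:3201120-3201155, chr6:3201273-3201333 and chr6:3201401-3201435. Block 5, at chr6:3201460-3201557, held 259 members in the MC-LR table and 327 in the shRNA table. Block 6, at chr6:3201644-3201671, had a single member, piR-mmu-2102276, in the shRNA table.

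The letters of blocks 1 to 5 are shown because they place the members on the 18S-related sequence. They are those of the chromosome 17 copy on the plus strand of GRCm38, from the GENCODE transcript, since the chromosome 6 letters were not used here. A capital marks the base of a block where members most outnumber names listed at both copies, the first such base in a tie. Most members of the block span it, and at most 2 names listed at both copies do. Each capital was picked by these counts, so the counts at it are the outcome of a search along the block.
Block 1: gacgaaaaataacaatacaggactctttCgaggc
Block 2: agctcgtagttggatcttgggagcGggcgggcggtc
Block 3: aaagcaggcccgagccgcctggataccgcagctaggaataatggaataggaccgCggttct
Block 4: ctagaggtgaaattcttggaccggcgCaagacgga
Block 5: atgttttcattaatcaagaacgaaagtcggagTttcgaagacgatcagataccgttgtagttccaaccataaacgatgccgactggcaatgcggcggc

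The capital of block 5 is base 1051 of the 18S-related sequence, at chr6:3201492 and chr17:39847403. In the MC-LR table it was spanned by 166 of the 259 members of the block, by 1 name listed at both copies and by 26 names of the chromosome 17 stretch alone. In the shRNA table these counts were 245 of 327, 1 and 33. Blocks 1, 2 and 4 had their capital in every member, at bases 550, 703 and 986, and there the names of chromosome 17 alone were more numerous than the members, at 77 to 173 names against 14 to 28 members. Block 3 had its capital, base 886, in 21 of 25 members of the MC-LR table and 21 of 28 of the shRNA table. The members outnumbered the names of chromosome 17 alone only at the capital of block 5, among these 5 bases. Whether the copies differ in sequence at these bases was not read here.

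The members that span base 1051 carried nearly all of the summed member level, which leaves out the other names of the window. They held 95.4% of the summed member level in the MC-LR table and 96.5% in the shRNA table, and block 5 as a whole 97.3% and 97.7%. Levels are in RPM, reads relative to the total of their library. That total was recovered from the values and ranged from 4960467 reads (control B) to 14634370 (control A). The other window names, first listed elsewhere, had a mean of 8288 RPM with MC-LR and 22959 RPM in control. The members had 11314 and 31601 RPM. In the shRNA table the other names had 2079 RPM with Hsp90aa1 shRNA and 15918 RPM with negative-control shRNA. There the members had 2734 and 24856 RPM. Shares of the member level are therefore not shares of all RPM listed in the window. Overlapping names may share reads, so members are not independent measurements and a sum may count a read more than once.

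**Figure D1:**
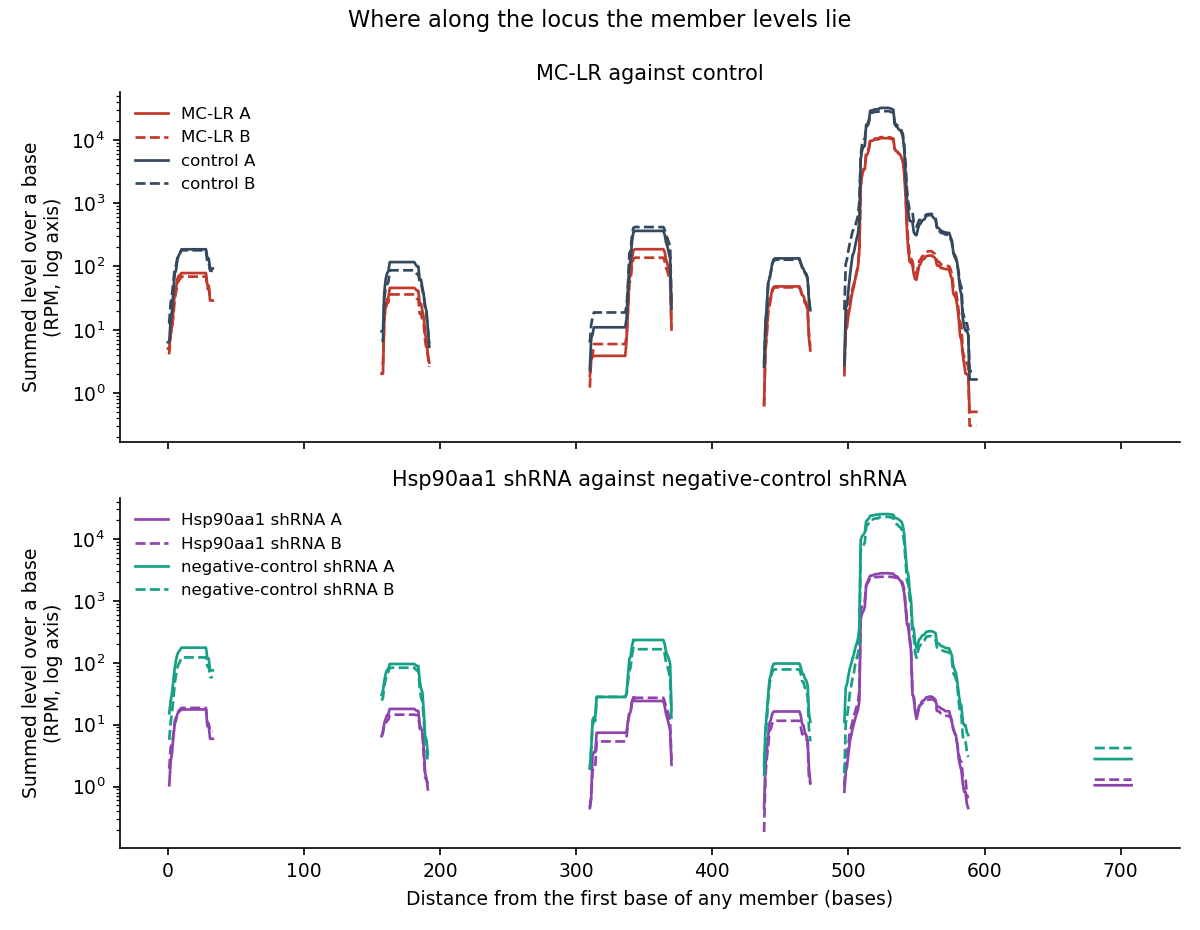
Summed member level in RPM (log axis) over each base, against the distance from the first base of any member, for each library of both tables. The fifth block is by far the highest and holds 97.3% and 97.7% of the level, and per library total the MC-LR and the Hsp90aa1 shRNA lines run below their references there, while per listed total the MC-LR sum was not lower.

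The locus was abundant in both tables. The 337 members of the MC-LR table held 8.92% and 9.82% of all listed RPM in MC-LR A and B, against 8.77% and 8.47% in control A and B. In the shRNA table the 419 members held 5.96% and 8.10% in Hsp90aa1 shRNA A and B, against 9.46% and 7.28% in libraries A and B of the negative-control shRNA. The shares of both MC-LR libraries were above those of both control libraries, and those of the shRNA groups overlapped. Most members were nonetheless rare, with a mean under 10 RPM in 203 of 337 and 288 of 419, and a mean over 100 RPM in 37 and 29.

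The leading members were nested in a short stretch of block 5 and shared their ends. For 6 names of this stretch that recur in the results, the letters at the parallel bases of chromosome 17 are shown, with base 1051 in capitals. Leading members of each table are among them. None of the 6 is itself listed on chromosome 17, so the named RNAs may differ from these letters.
piR-mmu-48788131: agaacgaaagtcggagTttcg
piR-mmu-26527348: atcaagaacgaaagtcggagTttcg
piR-mmu-48713617: acgaaagtcggagTttcg
piR-mmu-31109103: acgaaagtcggagTttcgaagacgat
piR-mmu-15657380: atcaagaacgaaagtcggagTttcgaagac
piR-mmu-49147517: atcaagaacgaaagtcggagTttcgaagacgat

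These names begin at chr6:3201472, chr6:3201476 or chr6:3201479. In the MC-LR table the members that begin at these bases held 14.1%, 23.3% and 25.1% of the summed level, through 8, 1 and 14 names. In the shRNA table they held 30.1%, 28.1% and 9.17%, through 13, 12 and 16 names. The 6 names end at chr6:3201496, chr6:3201501 or chr6:3201504. Of the 337 and 419 members there were only 88 and 90 distinct first bases.

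Members were 17 to 34 nt long, with a median of 27 nt in both tables. Read from the chromosome 17 letters, 32.3% of the members of the MC-LR table and 27.7% of those of the shRNA table began with T, against 20.6% and 20.5% of the bases of the parallel stretch. By level the share was lower, at 13.4% and 8.88%, since the leading members begin with A. An A at base 10 marks secondary piRNAs made by the ping-pong cycle. It was found in 35.6% and 33.4% of the members and in 15.7% and 13.3% of their level. Among the bases of the parallel stretch the share of A was 24.5% in both. Members that share a first base were each counted, and shares among other names are not given. The shares by name therefore show no excess over other names.

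The first comparison was MC-LR against control. Per library total the members were lower after MC-LR. Their summed level was 11122 and 11507 RPM in MC-LR A and B, against 33358 and 29845 RPM in control A and B. Both MC-LR libraries lay below both control libraries. The means were 11314 ± 272 RPM and 31601 ± 2484 RPM (SD, n = 2 each), which is 2.79-fold lower with MC-LR, and the exact two-sided permutation p of 0.333 is the smallest that 2 libraries against 2 can give.

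The ratio was near that of the whole table. All 13450 listed names together were 3.03-fold lower, the other names of the window 2.77-fold lower, and the names of the parallel chromosome 17 stretch alone 2.81-fold lower. Divided by the listed total in place of the library total, the members were not lower, with a control-to-MC-LR ratio of 0.920. The MC-LR table held only 3 names whose group means differed by less than 0.5 on the log2 scale, and 13136 of its 13450 names were lower by mean. The calls of this table are therefore not independent evidence of direction.

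Of the 336 members tested with limma, 278 passed as lower (82.7%), none passed as higher and 58 did not pass, where 73.1% of all 13271 names tested were lower and 2.37% higher. None was higher at an unadjusted p below 0.05 either, nor past the threshold with edgeR's TMM factors or DESeq2, where 2.37% (TMM factors) and 2.39% (DESeq2) of all names were higher, and where 8 and 7 members were so at an unadjusted p below 0.05. The median log2 fold change, on the log2(RPM + 1) scale, was −1.28 over the members and −1.17 over all names tested, and single members ranged from −3.32 to −0.53. Scaled within the list the direction was lost, as the members' median was −0.03 with edgeR's TMM factors, against 0.0021 over all names, and 0.017 with DESeq2, against 0.035. Then 4 and 5 members passed as lower, where 3.01% of all names did under each scaling. Without MC-LR A 148 members passed, where 39.8% of all names did, and without MC-LR B 154, where 40.6% did, with the lone MC-LR library assumed to vary like the controls. The groups overlapped in 10 members, 8 of them of 17 to 23 nt. Neither overlap nor calls at an unadjusted p were counted over all names, so these counts do not set the members apart.

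**Figure D2:**
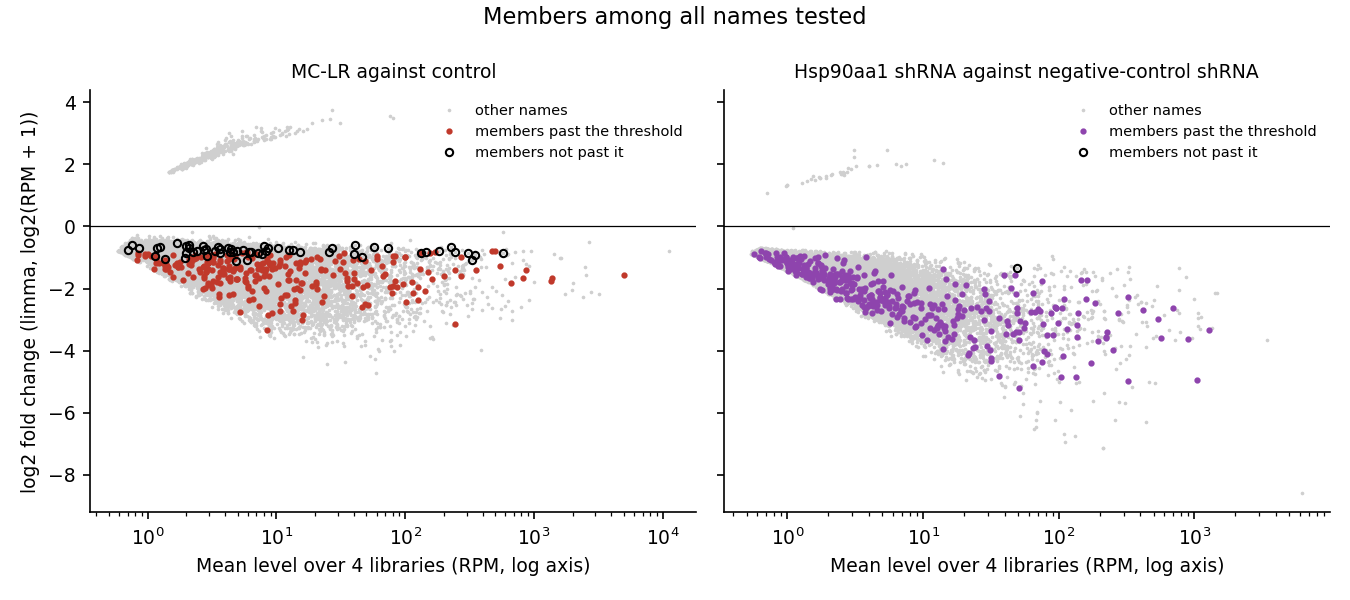
The log2 fold change of log2(RPM + 1) against the mean level (log axis) for each name tested, with members coloured where they passed the threshold and circled where they did not. In both tables all members lie below 0 amid the other names, on the scale of library totals, and with DESeq2's size factors the MC-LR median turned to 0.017.

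The member with the highest level was piR-mmu-48788131, of 21 nt at chr6:3201476-3201496. Its level was 2292 and 2701 RPM in MC-LR A and B, against 9225 and 5797 RPM in control A and B. The groups did not overlap, and the control libraries differed more from each other than the MC-LR libraries did. Its log2 fold change was −1.55 ± 0.35 (SE, n = 2 each, adjusted p by limma = 0.00377), which turned to 0.06 with TMM factors. The other 5 leading members, of 24 to 27 nt, fell by 1.41 to 1.83 on the log2 scale. Their libraries of a group were close together, except that piR-mmu-24513610 was 4.21-fold lower without MC-LR A and 3.02-fold without MC-LR B. With TMM factors piR-mmu-15985508 turned to 0.23, and with DESeq2 piR-mmu-26527348 turned to 0.02. Without MC-LR B piR-mmu-15985508 did not pass (limma adjusted p = 0.0511). The 26-nt name piR-mmu-31109103, at chr6:3201479-3201504, had 669 and 649 RPM in MC-LR A and B, against 2129 and 2078 RPM in control A and B. Both groups of this name were tight and far apart (log2 fold change −1.67 ± 0.32, SE, n = 2 each, adjusted p by limma = 0.00163), although DESeq2's size factors gave 0.014.

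**Figure D3:**
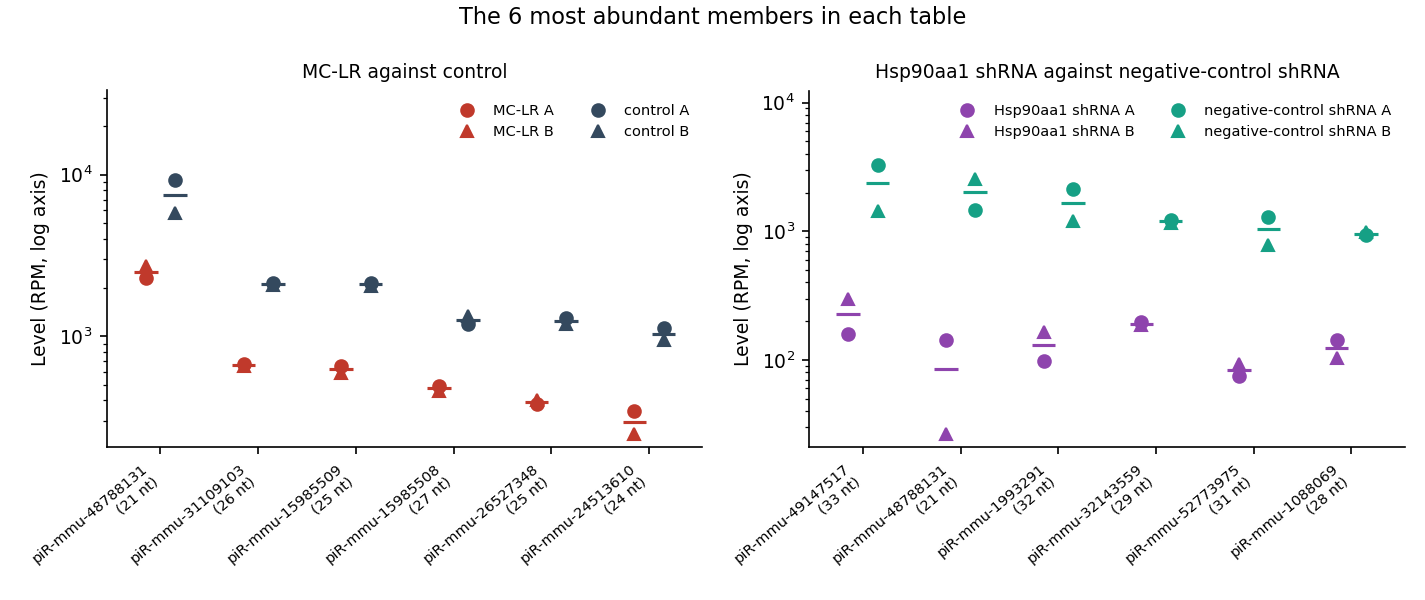
Level in RPM (log axis) of the 6 most abundant members of each table, in each library, with bars at the group means. Per library total, all MC-LR points lie below the control points and all Hsp90aa1 shRNA points below the negative-control shRNA points, while with TMM factors piR-mmu-48788131 (0.06) and piR-mmu-15985508 (0.23) turned above 0 in the MC-LR table and piR-mmu-32143559 (0.23) in the shRNA table.

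The deepest falls were on less abundant names of the same stretch. piR-mmu-53000694, of 31 nt at chr6:3201466-3201496, had 0.673 and 0.610 RPM in MC-LR A and B, which are 4 reads each, against 10.7 and 21.97 RPM in control A and B. Its log2 fold change was −3.32 ± 0.40 (SE, n = 2 each, adjusted p by limma = 0.00024). piR-mmu-48713617, of 18 nt at chr6:3201479-3201496, had 35.01 and 58.68 RPM in MC-LR A and B, against 609.9 and 269.7 RPM in control A and B, with a log2 fold change of −3.13. Both names end at chr6:3201496, and neither shows an overlap of the groups. The next were piR-mmu-53112008 (−3.02) and piR-mmu-67736441 (−2.86), of 32 and 33 nt.

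All 14 members of the MC-LR table that end at chr6:3201496 passed as lower, where 73.1% of all names tested did. The median log2 fold change of the 14 was −2.23. Together they had 2850 and 3340 RPM in MC-LR A and B, against 12110 and 7955 RPM in control A and B. This was 3.24-fold lower, 2.57-fold without control A and 3.91-fold without control B. Of the members that end at chr6:3201503 and chr6:3201504, 6 of 10 and 7 of 11 passed, each set being 2.52-fold lower. Without control A the sets that end at chr6:3201503 and chr6:3201504 were 2.47- and 2.57-fold lower, and without control B 2.57- and 2.48-fold. These differences between ends were not tested.

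Members that did not pass included abundant names. The 4 most abundant of them were piR-mmu-15657380 (30 nt), piR-mmu-1992965 (31 nt), piR-mmu-477433 (32 nt) and piR-mmu-2281691 (19 nt). For piR-mmu-15657380, at chr6:3201472-3201501, the level was 412 and 378 RPM in MC-LR A and B, against 541 and 956 RPM in control A and B. The groups did not overlap, but the gap to control A was smaller than the gap between the controls (log2 fold change −0.86 ± 0.37, SE, n = 2 each, adjusted p by limma = 0.0514). For piR-mmu-2281691, at chr6:3201486-3201504, MC-LR A and B had 192 and 218 RPM, against 611 and 222 RPM in control A and B. Here the MC-LR libraries lay just below control B and far below control A (log2 fold change −0.84 ± 0.46, SE, n = 2 each, adjusted p by limma = 0.102). Each of these 4 calls turned on a control library. Without control A the first 3 names passed, at −1.27, −1.50 and −1.90, and without control B piR-mmu-2281691 passed, at −1.57.

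The length of the members differed between the control libraries. Names of 17 to 23 nt held 36.4% and 41.0% of the member level in MC-LR A and B, against 48.8% and 33.2% in control A and B. Names of 29 to 35 nt held 17.1% and 17.7% in MC-LR A and B, against 9.11% and 21.5% in control A and B. In both classes the MC-LR shares lay between those of the controls. By summed level the classes of 17 to 23, 24 to 28 and 29 to 35 nt were 2.99-, 2.78- and 2.40-fold lower with MC-LR. The last of these was 3.26-fold without control A and 1.54-fold without control B. Past the threshold were 51 of 66, 135 of 153 and 92 of 117 members of these classes, where 73.1% of all names tested were lower.

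**Figure D4:**
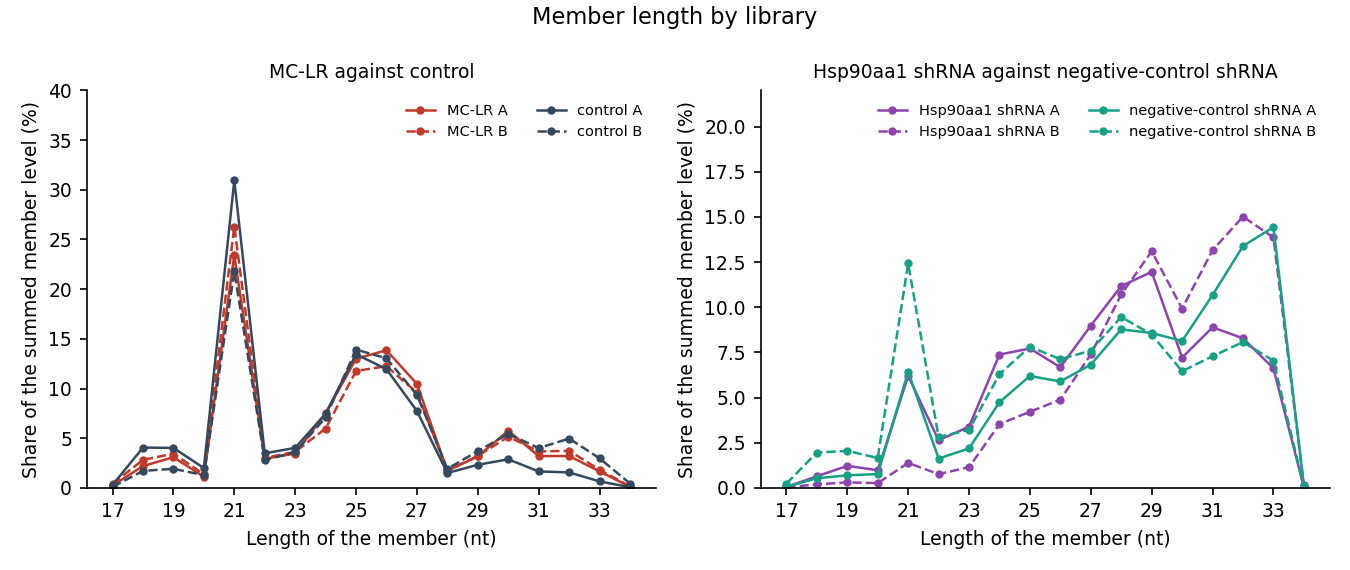
Share of the summed member level, in percent, by member length in nt, for each library of both tables. The 21-nt names stand out in the MC-LR table, where at that length both MC-LR points lie between the control points, while the lines of the Hsp90aa1 shRNA and negative-control shRNA libraries cross.

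Outside block 5 the members were rare. The summed level of block 3 was 191 and 143 RPM in MC-LR A and B, against 375 and 437 RPM in control A and B. Blocks 1, 2 and 4 had 36.1 to 78.6 RPM in the MC-LR libraries, against 86.9 to 186 RPM in the control libraries. Each of these 4 blocks was lower in both MC-LR libraries than in both controls, by 2.43- to 2.76-fold. Of all names tested, 73.1% passed as lower, and of the members of block 5, 219 of 258 did. Past the threshold were 10 of 14, 12 of 14, 18 of 25 and 19 of 25 members of blocks 1 to 4. Their most abundant names were piR-mmu-55290177 (−0.81, not passed), piR-mmu-30362823 (−0.91), piR-mmu-53069790 (−0.90, not passed) and piR-mmu-32339338 (−1.05), as log2 fold changes, all 4 of which were above 0 with TMM factors. piR-mmu-55290177 passed without control B (−1.11) and piR-mmu-53069790 without control A (−1.51). Neither of the other 2 passed without MC-LR A (limma adjusted p of 0.126 and 0.0779) or without MC-LR B (0.228 and 0.183). Of these, piR-mmu-55290177 is the only member of either table with a further listed locus, so its reads cannot be assigned to chromosome 6. Nor does a single listed locus assign the reads of other members, many of which have near-equal counterparts on chromosome 17, described below.

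Within block 5, the 93 members that begin after base 1051 had 150 and 176 RPM in MC-LR A and B, against 654 and 681 RPM in control A and B, 4.09-fold lower. The 166 members that span it were 2.78-fold lower. Both sets were lower in each MC-LR library, and the difference between them was not tested.

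The second comparison was Hsp90aa1 shRNA against negative-control shRNA. Per library total the members were again lower, with a larger ratio. Their summed level was 2910 and 2557 RPM in Hsp90aa1 shRNA A and B, against 26219 and 23492 RPM in negative-control shRNA A and B. All libraries of the first group lay far below those of the second. The means were 2734 ± 250 RPM and 24856 ± 1929 RPM (SD, n = 2 each), 9.09-fold lower with the Hsp90aa1 shRNA, with the same smallest exact permutation p of 0.333.

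All 17375 listed names together were 7.46-fold lower, the other names of the window 7.65-fold and the names of the parallel chromosome 17 stretch alone 8.56-fold. Divided by the listed total, the members were 1.19-fold lower, with overlapping libraries. By mean, 17337 of its names were lower, and 1 had group means within 0.5 of each other on the log2 scale, so its calls too give no independent evidence of direction. Whether the effects of MC-LR and of the shRNA differ was not tested, since the tables were scaled apart.

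Of 409 members tested with limma, 408 passed as lower (99.8%) and none as higher, where 99.5% of all 16857 names tested were lower and 0.219% higher. None was higher at an unadjusted p below 0.05 with limma either, and with TMM factors and DESeq2 none passed as higher, where 0.219% and 0.202% of all names did, and 7 and 8 members were higher at an unadjusted p below 0.05. The share of members is close to that of the table. Their median log2 fold change was −2.12, against −1.66 over all names tested, and single members ranged from −5.20 to −0.77. With TMM factors the medians were −0.37 over the members and −0.04 over all names, and with DESeq2 −0.30 and 0.031, so the sign stayed but 0 and 5 members passed as lower, where 0.125% and 0.789% of all names did, and 43 and 31 members were lower at an unadjusted p below 0.05. No member had overlapping groups. Here too neither overlap nor calls at an unadjusted p were counted over all names, so these counts do not set the members apart. Leaving out a library kept the count of lower members between 362 and 398. The 10 members left untested had a mean under 1 RPM in both groups.

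The leading member of this table was piR-mmu-49147517, of 33 nt at chr6:3201472-3201504, which the MC-LR table does not list. Its level was 158 and 296 RPM in Hsp90aa1 shRNA A and B, against 3256 and 1450 RPM in negative-control shRNA A and B. The groups were far apart, although the libraries within each group differed (log2 fold change −3.32 ± 0.77, SE, n = 2 each, adjusted p by limma = 0.00261). Of the 6 most abundant members here 5 are names that the MC-LR table does not list. They are piR-mmu-49147517, piR-mmu-1993291 (32 nt, −3.63), piR-mmu-32143559 (29 nt, −2.64, and 0.23 with TMM factors), piR-mmu-52773975 (31 nt, −3.58) and piR-mmu-1088069 (28 nt, −2.97), with log2 fold changes in this table. Without negative-control shRNA A, piR-mmu-49147517 (limma adjusted p = 0.0915), piR-mmu-32143559 (0.103) and piR-mmu-1088069 (0.0539) did not pass, and without negative-control shRNA B piR-mmu-32143559 did not (0.0632). The 108 members of this table alone held 59.0% of its member level, whereas the 26 of the MC-LR table alone held 0.237%.

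The shared name piR-mmu-48788131 had 143 and 26.7 RPM in Hsp90aa1 shRNA A and B, against 1472 and 2550 RPM in negative-control shRNA A and B. Both groups spread widely, yet each Hsp90aa1 shRNA library was far below both others (log2 fold change −4.94 ± 0.87, SE, n = 2 each, adjusted p by limma = 0.00091). The level was 23.7-fold lower, 14.0-fold without Hsp90aa1 shRNA B and 75.4-fold without Hsp90aa1 shRNA A. piR-mmu-31109103 had 40.8 and 28.3 RPM in Hsp90aa1 shRNA A and B, against 382 and 442 RPM in negative-control shRNA A and B, with a log2 fold change of −3.56.

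The deepest fall was on piR-mmu-1994603, of 22 nt at chr6:3201472-3201493. It had 3.07 and 0.738 RPM in Hsp90aa1 shRNA A and B, against 75.3 and 124 RPM in libraries A and B of the negative-control shRNA, and the lower value rests on 8 reads (log2 fold change −5.20 ± 0.59, SE, n = 2 each, adjusted p by limma = 0.00058). piR-mmu-26527348 (25 nt, −4.96), piR-mmu-48788131 and piR-mmu-18129248 (24 nt, −4.85) came next. These 4 names end within chr6:3201493-3201496. In the MC-LR table the same 4 had log2 fold changes of −1.94, −1.66, −1.55 and −1.39.

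The 14 members that end at chr6:3201496 passed here as nearly all names of the table did (99.5%). Together they had 188 and 45.2 RPM in Hsp90aa1 shRNA A and B, against 2278 and 3592 RPM in negative-control shRNA A and B. This was 25.2-fold lower, 15.6-fold without Hsp90aa1 shRNA B and 64.9-fold without Hsp90aa1 shRNA A. Most of this sum was again the single name piR-mmu-48788131. Members that end at the neighbouring bases chr6:3201493, chr6:3201494 and chr6:3201495 were 30.4-, 25.2- and 23.8-fold lower. Members that end at chr6:3201503, chr6:3201504 and chr6:3201505 were 10.8-, 8.75- and 6.72-fold lower, and the difference between ends was not tested.

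By first base, the members that begin at chr6:3201472 had 494 and 678 RPM in Hsp90aa1 shRNA A and B, against 9286 and 6160 RPM in negative-control shRNA A and B, 13.2-fold lower. Those that begin at chr6:3201476 had 997 and 735 RPM in Hsp90aa1 shRNA A and B, against 6604 and 7184 RPM in negative-control shRNA A and B, 7.96-fold lower. Both sets were lower in each Hsp90aa1 shRNA library.

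Length shares varied within both shRNA groups. Names of 17 to 23 nt held 15.1% and 4.07% of the member level in Hsp90aa1 shRNA A and B, against 12.3% and 24.3% in libraries A and B of the negative-control shRNA. Names of 29 to 35 nt held 43.0% and 65.2% in Hsp90aa1 shRNA A and B, against 55.3% and 37.4% in libraries A and B of the negative-control shRNA. The groups overlapped in both classes. The summed level of the classes of 17 to 23, 24 to 28 and 29 to 35 nt was 16.4-, 8.72- and 7.98-fold lower, and the first was 10.2-fold without Hsp90aa1 shRNA B and 43.0-fold without Hsp90aa1 shRNA A.

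The only tested member that did not pass here was piR-mmu-16250816, of 25 nt at chr6:3201477-3201501. It had 40.9 and 17.4 RPM in Hsp90aa1 shRNA A and B, against 64.1 and 74.9 RPM in negative-control shRNA A and B. The groups were apart, and Hsp90aa1 shRNA A lay nearer to the negative-control shRNA libraries than to its own partner in ratio (log2 fold change −1.34 ± 0.62, SE, n = 2 each, adjusted p by limma = 0.0578). Without Hsp90aa1 shRNA A it passed, at −1.94.

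Blocks 1 to 4 were 8.21-, 5.50-, 7.11- and 6.28-fold lower, and block 5 was 9.16-fold lower. In blocks 1 to 4 the summed level was 11.5 to 32.5 RPM in the Hsp90aa1 shRNA libraries, against 77.9 to 261 RPM in the negative-control shRNA libraries. All tested members of blocks 1 to 4 passed, where 99.5% of all names tested were lower. The most abundant members of these blocks were piR-mmu-25449529 (−3.09), piR-mmu-12148027 (−1.98), piR-mmu-53069790 (−2.65) and piR-mmu-31163266 (−1.74). With TMM factors piR-mmu-12148027 turned to 0.63 and piR-mmu-31163266 to 0.73. piR-mmu-2102276 of block 6 had 1.05 and 1.29 RPM in Hsp90aa1 shRNA A and B, against 2.78 and 4.19 RPM in negative-control shRNA A and B, from 14 to 56 reads (log2 fold change −1.03, and 1.27 with TMM factors). It did not pass without Hsp90aa1 shRNA A (limma adjusted p = 0.0807) or without negative-control shRNA B (0.0908).

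Some members had a counterpart, a different name at exactly the parallel bases of chromosome 17. There were 103 such pairs among the 337 members of the MC-LR table and 125 among the 419 of the shRNA table. Values of a pair were within 10% of each other in all 4 libraries for 87 and 100 pairs, and identical in 21 and 43. Block 2 stood apart, with only 5 of 13 and 6 of 20 pairs within 10%, against 82 of 90 and 94 of 105 in the other blocks together. In each of the other 8 and 14 pairs of block 2 the member was at or below its counterpart in every library, by up to 0.89 on the log2 scale in the MC-LR table and 1.32 in the shRNA table. Levels were low there, at 0.762 to 15.0 RPM and 0.0923 to 19.9 RPM for the members of its 13 and 20 pairs, and whether block 2 differs from the other blocks was not tested. The widest gap of all was that of piR-mmu-54572459 of block 5, with 0.305 RPM against 1.22 RPM for its counterpart in MC-LR B. For piR-mmu-15657380 and its counterpart piR-mmu-32176370, MC-LR A and B had 412 and 378 RPM under the first name and 406 and 369 RPM under the second, and control A and B had 541 and 956 RPM and 534 and 939 RPM. The pair thus moved as a unit, yet the counterpart passed (limma adjusted p = 0.0498) where the member did not. Pairs as close as this do not tell reads of the chromosome 6 copy from those of the chromosome 17 copy.

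**Figure D5:**
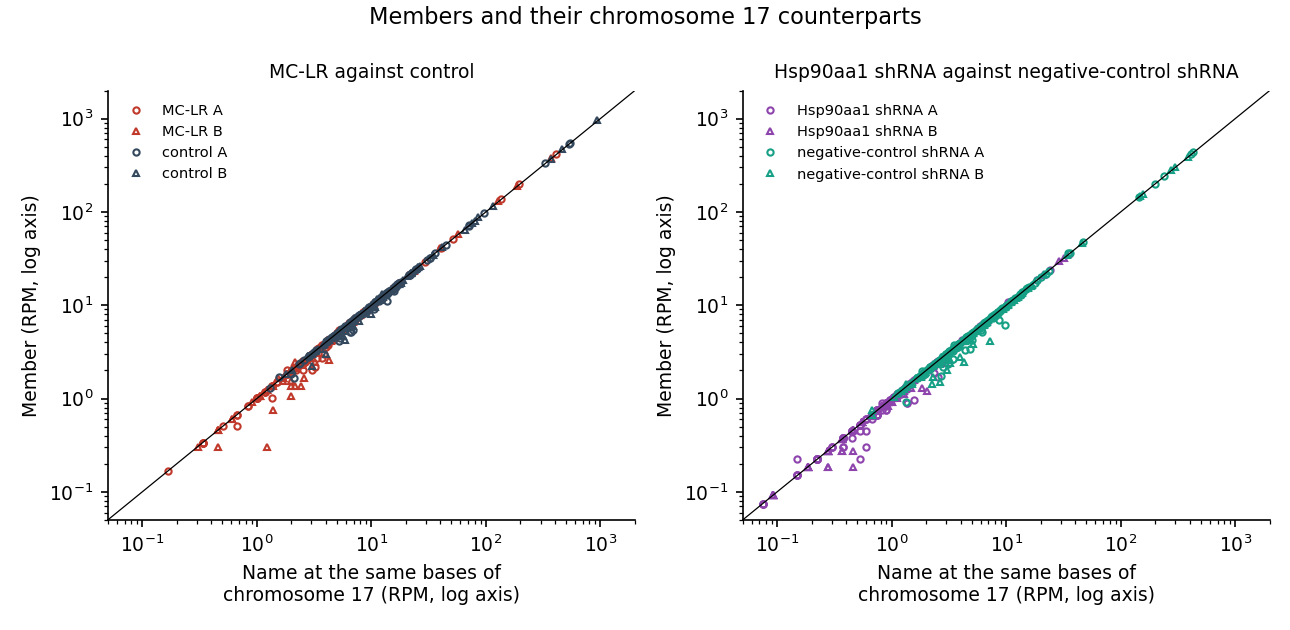
Level of a member against that of the name at the parallel bases of chromosome 17 (RPM, log axes), 1 point per pair and library, with the line of equality. Of the 103 and 125 pairs, 87 and 100 lie within 10% of the line in all 4 libraries of their table, while in block 2 only 5 of 13 and 6 of 20 do, and the points farthest off are at low levels.

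Pairs covered most of blocks 1 to 4 but little of block 5. Blocks 1 to 4 of the MC-LR table had a counterpart for 13 of 14, 13 of 14, 25 of 25 and 25 of 25 members, against 27 of 259 in block 5. For block 5 of the shRNA table it was 33 of 327. Of the 6 names of block 5 whose parallel letters are shown above, only piR-mmu-15657380 has a counterpart at the parallel bases.

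Other loci with ribosomal sequence differed in ratio. In the MC-LR table the names of the 45S copy on chromosome 17 were 2.84-fold lower per library total, those of a ribosomal-like locus on chromosome 1 were 3.13-fold lower and those of another on chromosome 16 were 3.37-fold lower, beside 2.79-fold for the members. In the shRNA table these ratios were 7.87, 10.3 and 49.3, beside 9.09 for the members. The locus on chromosome 16 had 406 and 245 RPM in Hsp90aa1 shRNA A and B, against 9087 and 23007 RPM in negative-control shRNA A and B, so its reference libraries differed widely. Ratios between loci were not tested.

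Of the 311 members in both tables, 303 were tested in both and 253 of these passed as lower in both (83.5%), per library total, where 78.5% of all 10339 names tested in both did. No member had fold changes of opposite sign in the tables, and neither did any other of these names.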

How the data were processed

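Small RNA levels of 8 libraries came from 2 files that the authors deposited, each covering a pair of groups and giving RPM by piRNA name and genome position. The submitters' processing notes name mm10 and the tools HISAT2 2.1.0, HTSeq 0.6.0 and Bowtie2 2.2.3, without roles. For trimming and the listing rule, nothing is given in the sources used here. RNA extraction used Trizol, per the labels' protocols. The deposited RPM were multiples of a single read in 100% of values, within 0.01 of a read, and so gave back reads and totals. A floor of 3 reads is 0.205 to 0.605 RPM in these libraries, for counting error only.

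Starts were read as 0-based, since 476 loci then begin at a RefSeq mature microRNA, against 70 otherwise. Each name was kept once, at its first row. The members, lists and tests were chosen with earlier results of these data known. Names were tested with limma 3.58.1 (trend, robust) in R 4.3.3 on log2(RPM + 1) where a group mean reached 1 RPM, each table alone, with Benjamini-Hochberg adjustment over all names tested and a threshold of 0.05. The code was tested on simulated data. Alternatives were edgeR 4.0.16 and DESeq2 1.42.0 on recovered reads, a pseudocount of 0.1, no filter, another row per name, a replicate block and leaving out each library. Named members were the 6 most abundant, the 4 with the largest falls, the 4 most abundant that did not pass, and the most abundant of each block and length class. Names beyond this rule, and the end and base groups, were chosen after values were seen.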

Additional observations from a re-analysis of the deposited data

How the results depend on the processing

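Counts of members lower after MC-LR stayed within 1.5 times of 278 with edgeR on library totals, both other settings for low values, the other row per name and the replicate block, at 273 to 288. Scaled within the list, 4 (TMM factors) and 5 (DESeq2) passed, and leaving out a library gave 148 to 284. With the Hsp90aa1 shRNA, 0 (TMM factors) and 5 (DESeq2) passed in place of 408, all other settings gave 362 to 418, and no count of higher members left 0. Per listed total, the ratio of control to MC-LR became 0.920 and that of negative-control to Hsp90aa1 shRNA 1.19; leaving out a library gave 2.64 to 2.95 and 8.54 to 9.72. The cause was not tested, beyond that these scalings set the median of all names near 0.

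Letters A and B are only shared labels. Deviations of same-letter libraries correlated at 0.065 (MC-LR table) and −0.61 (shRNA table) across names. A block on the letters gave 273 and 398 members lower, and crossed letters, tried after the data were seen, gave 409 in the shRNA table. The block moved 4 named calls, with piR-mmu-1992965, piR-mmu-477433 and piR-mmu-55290177 passing after MC-LR and piR-mmu-32143559 no longer passing with the shRNA (adjusted p = 0.055).

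Above 0 with TMM factors in the MC-LR table were piR-mmu-15657380 0.73, piR-mmu-15985508 0.23, piR-mmu-1992965 0.62, piR-mmu-2281691 0.63, piR-mmu-30362823 0.64, piR-mmu-32339338 0.47, piR-mmu-477433 0.36, piR-mmu-48788131 0.063, piR-mmu-53069790 0.61 and piR-mmu-55290177 0.77. With DESeq2 they were piR-mmu-15657380 0.76, piR-mmu-15985508 0.27, piR-mmu-1992965 0.64, piR-mmu-2281691 0.68, piR-mmu-26527348 0.021, piR-mmu-30362823 0.68, piR-mmu-31109103 0.014, piR-mmu-32339338 0.51, piR-mmu-477433 0.39, piR-mmu-48788131 0.11, piR-mmu-53069790 0.64 and piR-mmu-55290177 0.82. In the shRNA table they were piR-mmu-12148027 0.63, piR-mmu-16250816 1.52, piR-mmu-2102276 1.27, piR-mmu-31163266 0.73 and piR-mmu-32143559 0.23 with TMM factors, and piR-mmu-12148027 0.71, piR-mmu-16250816 1.58, piR-mmu-2102276 1.36, piR-mmu-31163266 0.83 and piR-mmu-32143559 0.31 with DESeq2. All values are log2 fold changes.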
